A study of Mus musculus with 2 samples.

Results

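The genes described here are those of the B-cell receptor, the immunoglobulin constant regions and the plasma cell, listed as Cd79a, Cd79b, Ms4a1, Ighm, Ighd, Igkc, Jchain, Mzb1 and Sdc1. Members were the entries of both deposited expression files whose identifier maps to 1 of these 9 symbols in the GENCODE M21 mouse annotation. Entries were found for 8 of the 9 symbols, out of 38288 genes in the files. Ighd, the constant region of IgD, had no entry and was not analysed here. The study profiled liver cells by RNA sequencing after repeated injury, in 1 library per genotype. The control library came from Foxf1fl/fl mice, littermates that carry floxed Foxf1 alleles without Cre, and the other from αSMACreER;Foxf1-/- mice, in which a tamoxifen-inducible Cre under the αSMA promoter deletes Foxf1 in αSMA-expressing cells such as myofibroblasts. All mice were adult males of the C57/Bl6 strain that received carbon tetrachloride, a hepatotoxin that causes fibrosis, for 5 weeks, and tamoxifen was injected during the injury period to activate the deletion. For its staining the study describes livers of both genotypes after carbon tetrachloride and tamoxifen. It does not state tamoxifen for the control mice of the sequenced library, so a drug difference beside genotype was not checked here. Cells that adhered to culture dishes within 2 h were kept, and samples were pooled before library preparation, so that no library has a replicate.

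A B cell carries membrane immunoglobulin in a complex with the signalling chains CD79A and CD79B. After activation it can become a plasma cell, which loses surface receptor and secretes large amounts of immunoglobulin, with heavy and light chains assembled in the endoplasmic reticulum and IgM and IgA polymers joined by the J chain. Plasma cells, more than B cells, are therefore the main source of immunoglobulin RNA in a tissue, and their genes include Mzb1, an endoplasmic reticulum cochaperone, and Sdc1, the surface proteoglycan syndecan-1.

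The sequences below show the start regions of 1 receptor gene, 1 antibody-assembly gene and Sdc1, the 3 members found in the RefSeq promoter table for GRCm38.p6. The Cd79a and Sdc1 windows end at the last base before the first annotated exon, and the Jchain window ends a few bases before it. Each window is written 5′ to 3′ on the gene's strand. Capitals mark matches to motifs of B cell or plasma cell factors searched on both strands.
Cd79a, chr7:24897247-24897380, plus strand: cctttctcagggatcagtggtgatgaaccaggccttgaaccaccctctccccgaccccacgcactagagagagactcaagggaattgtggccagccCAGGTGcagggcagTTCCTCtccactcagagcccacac
Jchain, chr5:88527898-88528147, minus strand: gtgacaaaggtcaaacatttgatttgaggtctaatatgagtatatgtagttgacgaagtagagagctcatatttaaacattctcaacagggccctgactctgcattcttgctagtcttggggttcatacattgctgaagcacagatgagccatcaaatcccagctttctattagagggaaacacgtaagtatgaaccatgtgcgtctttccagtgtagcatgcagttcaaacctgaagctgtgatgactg
Sdc1, chr12:8771146-8771322, plus strand: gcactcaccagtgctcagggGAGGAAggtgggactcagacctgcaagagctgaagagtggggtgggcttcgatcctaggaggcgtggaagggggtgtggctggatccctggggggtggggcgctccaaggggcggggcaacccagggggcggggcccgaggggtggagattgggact

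In the Cd79a window the capitals are an E-box, CAGGTG, and an ETS core, GAGGAA, the latter on the opposite strand. Windows of the same length hold the E-box in 9.72% and the ETS core in 13.2% of promoters. The Sdc1 window holds the ETS core, as do 16.9% of promoters of its length. The Jchain window held none of the 6 motifs searched, which also included the octamer ATTTGCAT, the palindromic EBF1 motif, the XBP1 motif TGACGTGG and TATAAA. In 250-base windows the octamer was found in 1.61% of 27025 promoters, the EBF1 motif in 0.788%, the XBP1 motif in 0.503% and TATAAA in 13.0%.

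The antibody and antibody-assembly genes were at lower levels in the αSMACreER;Foxf1-/- library, whereas the receptor signalling chains and Sdc1 were at nearly equal levels in both. The lower group consisted of the IgM heavy chain, the κ light chain, the J chain and Mzb1. In number, 4 of the 8 measured members were at least 1.5-fold lower in the αSMACreER;Foxf1-/- library, 0 were at least 1.5-fold higher and 4 lay between. Of the 12861 genes with a mean of at least 1 FPKM (fragments scaled to transcript length in kilobases and to library depth), 13.2% were at least 1.5-fold lower and 12.9% at least 1.5-fold higher. All 4 were also at least 2-fold lower, against 6.22% of all genes tested. The median log2 fold change of the 8 members was -0.58, beside 0.01 for all genes tested. Here and below a log2 fold change is log2(FPKM + 0.1) in αSMACreER;Foxf1-/- minus that in Foxf1fl/fl, after division of the αSMACreER;Foxf1-/- values by 1.018. With 1 library per genotype no p-value can be given, and each bracket holds an approximate 95% counting interval from estimated reads, which covers counting error only and not the spread between mice. In such bulk libraries fewer cells of a type and less RNA per cell cannot be told apart.

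**Figure D1:**
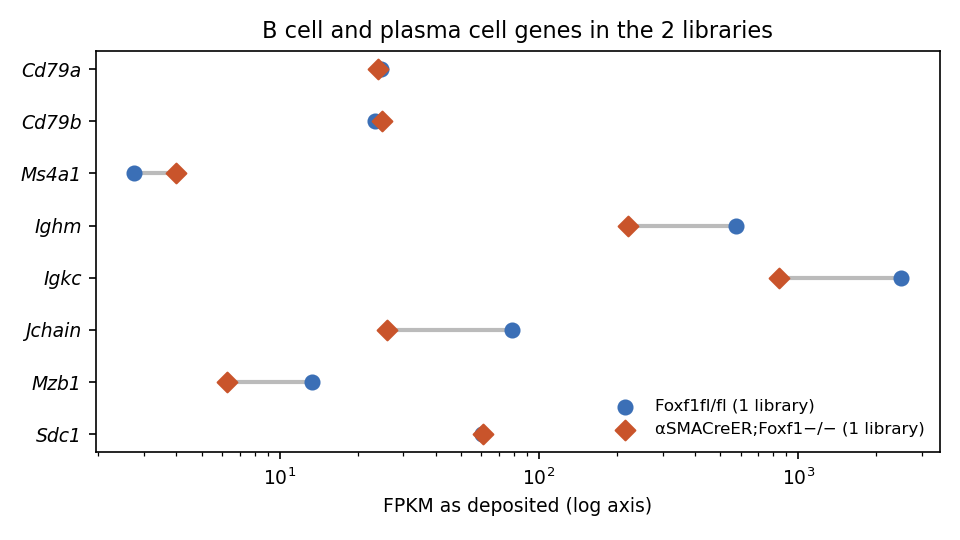
FPKM of each measured member on a log axis, with 1 point for the Foxf1fl/fl library and 1 for the αSMACreER;Foxf1-/- library. Igkc, Ighm, Jchain and Mzb1 have clearly separated points, from 2498 and 841 FPKM for Igkc down to 13.3 and 6.25 FPKM for Mzb1, while the points of Cd79a, Cd79b and Sdc1 nearly coincide.

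CD79A and CD79B form the signalling heterodimer that every membrane immunoglobulin needs to reach the B cell surface. Cd79a (ENSMUSG00000003379, chromosome 7, 24897381 to 24902197 in GRCm38, plus strand) stood at 24.6 FPKM in Foxf1fl/fl and 24.0 FPKM in αSMACreER;Foxf1-/-, with a log2 fold change of -0.06 [-0.29, 0.16]. Its promoter is the first of the sequences above. Cd79b (ENSMUSG00000040592, chromosome 11, 106311341 to 106314762, minus strand) stood at 23.3 and 24.7 FPKM, with a log2 fold change of 0.06 [-0.17, 0.29]. Both intervals include 0, and with an estimated 279 to 340 reads per gene and library they leave room for differences of about their width. The ratio of Cd79b to Cd79a FPKM was 0.948 and 1.03, so the pair kept nearly equal levels in each library.

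Ms4a1 encodes CD20, a surface protein of B cells that plasma cells lack. At ENSMUSG00000024673 (chromosome 19, 11249675 to 11266241, minus strand) it was the member with the lowest level, at 2.76 FPKM in Foxf1fl/fl and 3.99 FPKM in αSMACreER;Foxf1-/-. Its log2 fold change of 0.49 [0.08, 0.90] was the highest among the members and fell short of 1.5-fold. The estimate rests on about 77 and 128 reads.

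Ighm (ENSMUSG00000076617, chromosome 12, 113418558 to 113422730, minus strand) encodes the μ heavy chain, which serves in membrane IgM of B cells and in IgM secreted by plasma cells. The gene entry does not separate these forms. It was at 577 FPKM in Foxf1fl/fl and 219.8 FPKM in αSMACreER;Foxf1-/-, a 2.67-fold lower level with a log2 fold change of -1.42 [-1.48, -1.36]. Among the genes tested, 3.6% had a more negative log2 fold change.

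Igkc (ENSMUSG00000076609, chromosome 6, plus strand) encodes the constant region of the κ light chain, and its entry spans 70726435 to 70726757. It was the most abundant member, at 2498 FPKM in Foxf1fl/fl and 841 FPKM in αSMACreER;Foxf1-/-, which placed it 26th and 112th among all genes tested. The log2 fold change was -1.60 [-1.69, -1.50]. Igkc alone took 0.331% of the summed FPKM of the Foxf1fl/fl library and 0.126% of the other, so most of the members' combined share of 0.435% and 0.181% was κ light chain.

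The polymer and assembly genes were lower as well. Jchain (ENSMUSG00000067149, chromosome 5, 88519809 to 88527891, minus strand), which links IgM and IgA into polymers and whose promoter is the second sequence above, was at 78.8 and 26.0 FPKM. Its log2 fold change of -1.62 [-1.75, -1.49], or 3.07-fold lower, was the most negative of the members. Mzb1 (ENSMUSG00000024353, chromosome 18, 35647267 to 35649367, minus strand), which assists immunoglobulin folding, was at 13.3 and 6.25 FPKM with a log2 fold change of -1.10 [-1.60, -0.60]. The Mzb1 value is the least certain of the 4, since it rests on about 91 and 49 reads and 51.4% of the 75-base windows of its transcripts also occur in an overlapping readthrough gene on the same strand. In the other members at most 4.5% of windows recurred in another gene.

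Sdc1 (ENSMUSG00000020592, chromosome 12, 8771323 to 8793715, plus strand), a heparan sulphate proteoglycan used to mark plasma cells and also made by hepatocytes and other epithelia, did not follow the antibody genes. It was at 60.1 FPKM in Foxf1fl/fl and 60.9 FPKM in αSMACreER;Foxf1-/-, with a log2 fold change of 0.00 [-0.10, 0.09]. The remaining syndecans gave Sdc4 at 229.8 and 248 FPKM and Sdc3 at 179.6 and 163.6 FPKM. Across the 4 syndecans 0 passed 1.5-fold in either direction.

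**Figure D2:**
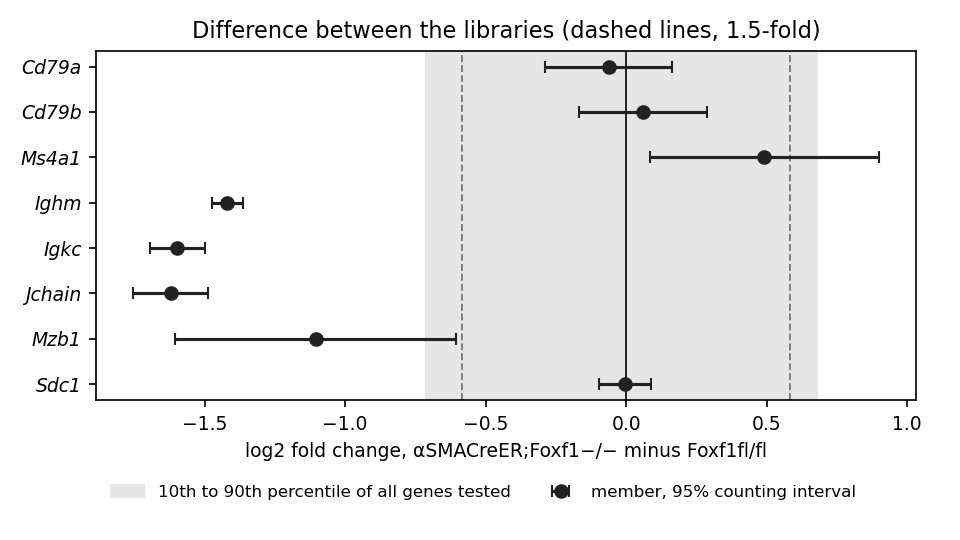
Log2 fold change of each measured member (αSMACreER;Foxf1-/- minus Foxf1fl/fl), with bars for the approximate 95% counting interval and lines at 1.5-fold. Ighm, Igkc, Jchain and Mzb1 lie below the lower line, at -1.42, -1.60, -1.62 and -1.10, and Cd79a, Cd79b, Ms4a1 and Sdc1 lie between the lines.

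Ratios within a library do not depend on the scaling between libraries. Per unit of Cd79a FPKM, Igkc stood at 102 in Foxf1fl/fl and 35.1 in αSMACreER;Foxf1-/-, Ighm at 23.5 and 9.17, Jchain at 3.20 and 1.09, and Mzb1 at 0.541 and 0.261. Relative to Cd79a these 4 genes were thus 2.08-fold to 2.95-fold lower. Ms4a1 and Sdc1 stood at 0.112 and 0.166 and at 2.44 and 2.54 per unit of Cd79a. Against each other, Igkc over Ighm was at 4.33 and 3.82, Jchain over Ighm at 0.136 and 0.118 and Jchain over Mzb1 at 5.92 and 4.16, the last a 1.42-fold difference.

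The heavy-chain isotypes did not move by equal amounts. Of 12 listed constant regions 9 had an entry and 8 passed the level filter, of which 6 were at least 1.5-fold lower, 0 higher and 2 between, with a median log2 fold change of -1.22. The largest differences were in IgG genes. Ighg2c was at 49.8 and 8.45 FPKM, with a log2 fold change of -2.57 [-2.89, -2.25], and Ighg1 at 71.0 and 18.9 FPKM, with -1.93 [-2.12, -1.74]. Ighg2b was at 59.2 and 29.8 FPKM, with -1.01 [-1.18, -0.85]. Igha, the heavy chain of mucosal IgA, differed less, at 277.6 and 160.3 FPKM with -0.82 [-0.89, -0.74], and it came to -0.52, under 1.5-fold, once the trend with transcript length was removed. Ighg3 was near equal in both libraries, at 4.93 and 5.26 FPKM. Ighe, at 0.639 and 0.152 FPKM, lay below the filter. The IgG genes share few identical stretches of read length, as at most 0.8% of the 75-base windows of Ighg1, Ighg2b, Ighg2c or Ighg3 recurred exactly in another gene. Windows that differ at a few bases were not counted, so reads assigned to the wrong IgG gene were not tested.

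As shares of summed heavy-chain FPKM, Ighm made up 55.5% in Foxf1fl/fl and 49.7% in αSMACreER;Foxf1-/-. Igha made up 26.7% and 36.2%, and the 4 IgG genes together 17.8% and 14.1%. Within IgG, Ighg2c went from 4.78% to 1.91% of heavy chain and Ighg1 from 6.82% to 4.27%, while Ighg2b was at 5.69% and 6.73%. The αSMACreER;Foxf1-/- library therefore had less heavy-chain RNA, 443 against 1041 FPKM in sum, with a larger share of IgA and a smaller share of IgM and IgG.

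**Figure D3:**
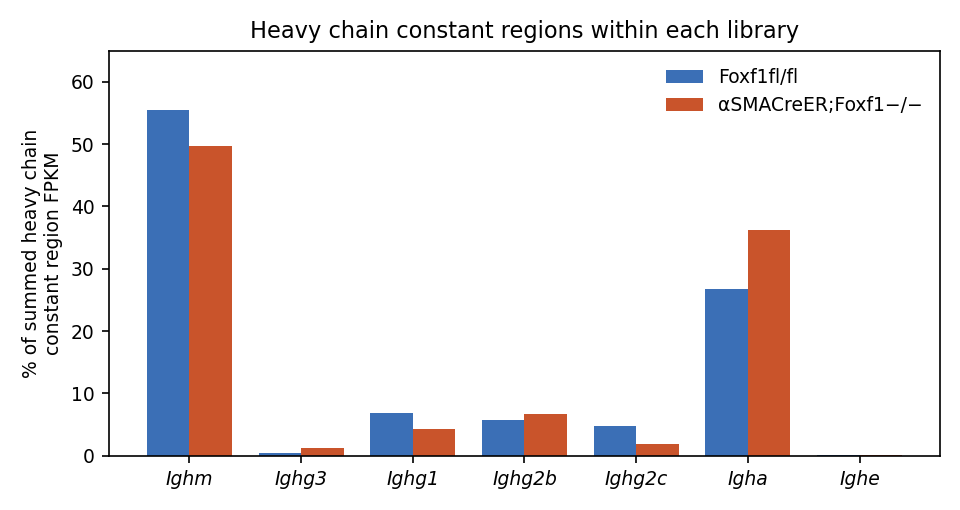
Share of summed heavy-chain FPKM (percent) taken by each constant region in the 2 libraries. Igha takes 26.7% in Foxf1fl/fl and 36.2% in αSMACreER;Foxf1-/-, and Ighm takes 55.5% and 49.7%.

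The light chains differed in the same comparison. Iglc2, a λ constant region, was at 34.0 FPKM in Foxf1fl/fl and 39.0 FPKM in αSMACreER;Foxf1-/-, with a log2 fold change of 0.17 [-0.15, 0.49], beside -1.60 for Igkc. Iglc2 was 1.34% and 4.44% of the summed FPKM of Igkc and Iglc2, the 2 listed light-chain constant regions with an entry. It covers only part of the λ constant regions. The first 90 bases of each constant exon (GENCODE M21, GRCm38) are given below.
Igkc, chr6:70726435-70726524, plus strand: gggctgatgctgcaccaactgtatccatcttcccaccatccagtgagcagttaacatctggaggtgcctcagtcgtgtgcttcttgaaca
Iglc2, chr16:19198764-19198853, minus strand: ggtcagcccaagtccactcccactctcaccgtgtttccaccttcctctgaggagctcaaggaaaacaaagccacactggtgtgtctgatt

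Without gaps the 2 stretches were identical at 23 of 90 positions. Similar parts of the 2 exons are shifted by a few bases, so this count does not measure how alike they are. No 75-base window of Igkc and 0.9% of those of Iglc2, shared with Iglc3, occurred in another gene. Iglc1 and Iglc3 had no entry and were not analysed here. The variable segments, which are joined to these constant regions in each B cell clone, gave a summed FPKM of 1794 in Foxf1fl/fl and 722 in αSMACreER;Foxf1-/-. Of 146 segments tested 103 were at least 1.5-fold lower and 17 higher, beside 13.2% and 12.9% of all genes tested. Among genes with transcripts of 73 to 541 bases, the length group of Igkc, 44.6% were at least 1.5-fold lower. The part of transcript length in the segment counts was not tested. Segments of the κ locus went from 1152 to 405 FPKM in sum, those of the heavy-chain locus from 526 to 255 FPKM and the 3 λ segments from 116 to 61.8 FPKM. The λ segments were thus lower in sum, unlike Iglc2. Of the 3, 1 was at least 1.5-fold lower and 1 higher.

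The partners of the B-cell receptor stood near equal levels, as Cd79a and Cd79b did. Of 9 co-receptor and inhibitory genes tested 0 passed 1.5-fold, with a median log2 fold change of 0.06. The 3 most abundant were the inhibitory Fc receptor gene Fcgr2b at 217 and 262 FPKM, the tetraspanin Cd81 at 199 and 189.6 FPKM and the phosphatase Ptpn6 at 149 and 129 FPKM, all of which other leukocytes express too. Of 16 genes of the signalling cascade 0 passed 1.5-fold, with a median of 0.16. Among them Syk, the kinase recruited by CD79 chains, was at 134.5 and 160.2 FPKM, Fyn at 101 and 117 FPKM and Pik3ap1 at 91.3 and 117 FPKM. With the libraries scaled to equal FPKM sums, which moved the median of all genes to 0.21, 1 of the 9 and 3 of the 16 passed 1.5-fold upwards.

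Genes of mature B cell identity leaned to higher levels in the αSMACreER;Foxf1-/- library, with 13 of 15 log2 fold changes above 0. Of these 15, tested from 19 listed, 3 were at least 1.5-fold higher and 0 lower, with a median log2 fold change of 0.26. Among all genes tested 12.9% were at least 1.5-fold higher and 13.2% lower. Pax5, the factor that maintains B cell identity and is silenced in plasma cells, was at 2.40 FPKM in Foxf1fl/fl and 9.92 FPKM in αSMACreER;Foxf1-/-, with 1.98 [1.75, 2.21]. Bach2, a repressor of plasma cell differentiation, was at 1.99 and 4.98 FPKM, with 1.25 [1.001, 1.51]. The 2 were still at 1.49 and 0.76 after removal of the trend with transcript length. H2-Ob, a modulator of antigen presentation in B cells, was at 10.5 and 16.2 FPKM, with 0.60 [0.38, 0.82]. Spib was at 19.2 and 26.2 FPKM and Cd72 at 76.4 and 80.8 FPKM, both under 1.5-fold. Among genes of B cell precursors Igll1 and Rag2 were listed at 0 in both libraries. Of the 4 precursor genes tested 1 passed 1.5-fold, Cd93, which endothelial and myeloid cells also express, at 15.8 and 25.1 FPKM. Il7r was at 11.1 and 15.8 FPKM and Erg at 11.5 and 9.38 FPKM.

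As a list, the factors that direct plasma cell fate did not share the difference of the antibody genes. Of 10 genes for plasma cell regulators and surface proteins 1 passed 1.5-fold upwards and 0 downwards, with a median of 0.23. Over all genes tested the shares were 12.9% upwards and 13.2% downwards. The 10 log2 fold changes ran from -0.54 to 0.60, with 6 above 0 and 4 below. Xbp1, the secretory regulator, was at 92.1 and 90.6 FPKM, Cd38 at 54.8 and 55.7 FPKM and Slamf7, the 1 past 1.5-fold, at 39.7 and 61.4 FPKM. Prdm1, which encodes BLIMP1, was at 9.83 and 14.2 FPKM and Irf4 at 12.3 and 16.1 FPKM. These genes are active in macrophages, T cells or hepatocytes too, and their source was not tested. Tnfrsf17, the plasma cell receptor BCMA, was below the filter, at 0.400 FPKM in Foxf1fl/fl and listed at 0 in the other library.

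Of 15 genes of antibody folding and secretion 3 were at least 1.5-fold lower and 0 higher, with a median of -0.03. Among all genes tested 13.2% were lower and 12.9% higher. Fkbp11, a peptidyl-prolyl isomerase of secretory cells, was at 17.0 and 8.81 FPKM, with -0.96 [-1.20, -0.72]. Sec11c, a signal peptidase subunit, was at 89.2 and 57.7 FPKM and Ssr4, a translocon subunit, at 158 and 106 FPKM. The most abundant chaperones were near equal, with Hspa5 at 717 and 734 FPKM and Hsp90b1 at 291 and 354 FPKM, and Manf was at 196 and 155 FPKM, under 1.5-fold. Among 9 factors of B cell survival and homing, the B cell chemoattractant Cxcl13 was at 96.6 and 45.9 FPKM and Il6, a growth factor of plasma cells, at 204.8 and 134.5 FPKM. In the same list Cxcr4, the receptor that guides plasma cells to their niche, was 1.5-fold higher, at 129.8 and 198.8 FPKM. The MS4A family had 2 of 8 genes past 1.5-fold, both higher, beside 12.9% of all genes tested. These were Ms4a4b at 13.1 and 21.8 FPKM and Ms4a6b at 38.1 and 62.7 FPKM. The 3 most abundant MS4A genes were under 1.5-fold, Ms4a4c at 120.4 and 130.4 FPKM, Ms4a6d at 114 and 108 FPKM and Ms4a6c at 63.1 and 67.7 FPKM.

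**Figure D4:**
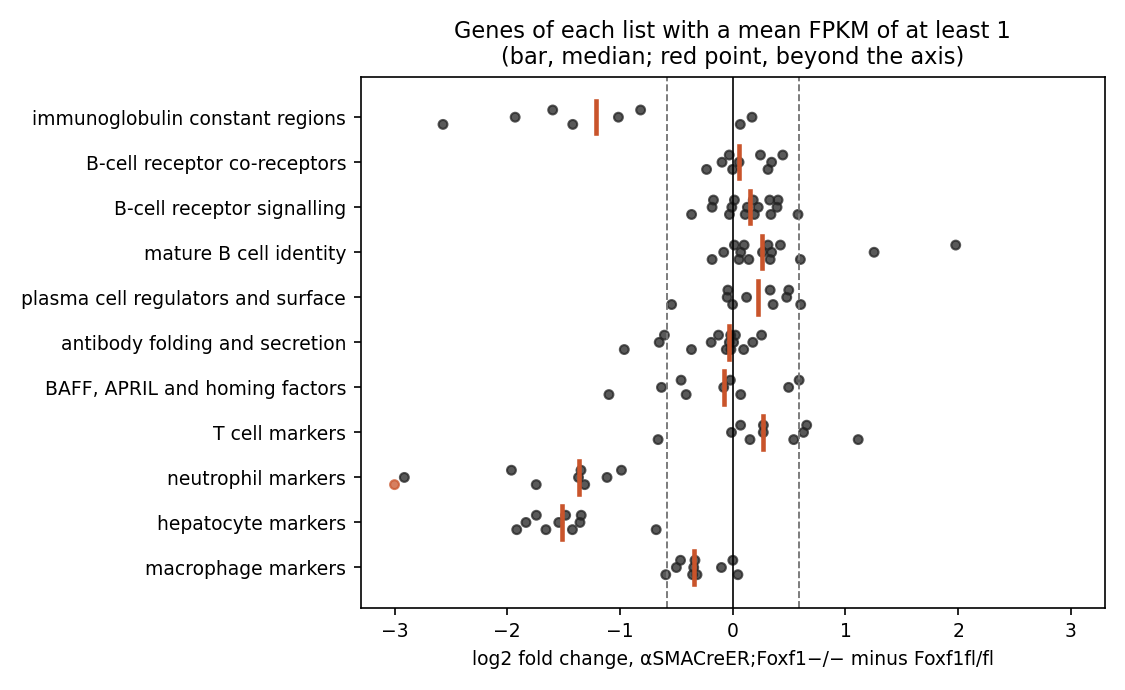
Log2 fold change of every tested gene (points) and the list median (bar) for the B cell, plasma cell and other cell type lists, with lines at 1.5-fold and 1 gene beyond the axis, Ly6g, drawn in red near the left edge. The immunoglobulin constant regions (median -1.22), neutrophil markers (-1.37) and hepatocyte markers (-1.51) sit low, while the co-receptor and signalling lists sit near 0, at 0.06 and 0.16.

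Markers of hepatocytes and neutrophils moved with the antibody genes, while the lists for the other non-B cell types had medians from -0.34 to 0.47. All 10 hepatocyte markers tested were at least 1.5-fold lower in the αSMACreER;Foxf1-/- library, with a summed level of 5009 and 2110 FPKM and a median log2 fold change of -1.51. All 9 neutrophil markers were lower too, with sums of 2322 and 926 FPKM and a median of -1.37, and Ly6g was listed at 0 in αSMACreER;Foxf1-/-. These medians are close to the values of Ighm, Igkc and Jchain, and their part in the antibody result was not tested. T cell markers did not share the direction, with 3 of 10 higher, 1 lower, sums of 171 and 211 FPKM and a median of 0.27. Plasmacytoid dendritic cells, which express some B cell genes, had sums of 714 and 568 FPKM and a median of 0.13 over 9 markers. Both libraries are labelled stromal, and in them Des was at 1.70 and 3.29 FPKM and Acta2 at 7.77 and 5.65 FPKM. The stellate cell and myofibroblast markers, which include both, summed to 225 and 321 FPKM, with a median of 0.47. Of the 8 tested 6 were above 0, 1 was at least 1.5-fold higher and 0 lower. The macrophage markers summed to 9620 and 7606 FPKM, with a median of -0.34. The targeted gene Foxf1 was not analysed here, so the genotype labels were not checked against it.

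Short transcripts were lower in the αSMACreER;Foxf1-/- library in general. Among 20 groups of genes of like transcript length, the group that holds Igkc had a median log2 fold change of -0.34 and 44.6% of it was at least 1.5-fold lower. The group of Mzb1 had a median of -0.41 and 32.6% lower, that of Ighm -0.25 and 20.2%, and that of Jchain -0.10 and 12.4%. Within their own groups, 25.0% of genes lay below Igkc, 11.5% below Mzb1, 5.2% below Ighm and 1.7% below Jchain. After the group median was subtracted the log2 fold changes were -1.25 for Igkc, -1.17 for Ighm, -1.52 for Jchain and -0.70 for Mzb1, and the same step gave 0.24 for Cd79a and 0.36 for Cd79b. By the share of its own group below it, Igkc thus stood out least of the 4 and Jchain most, whereas by distance from the group median Mzb1 stood out least and Jchain most.

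**Figure D5:**
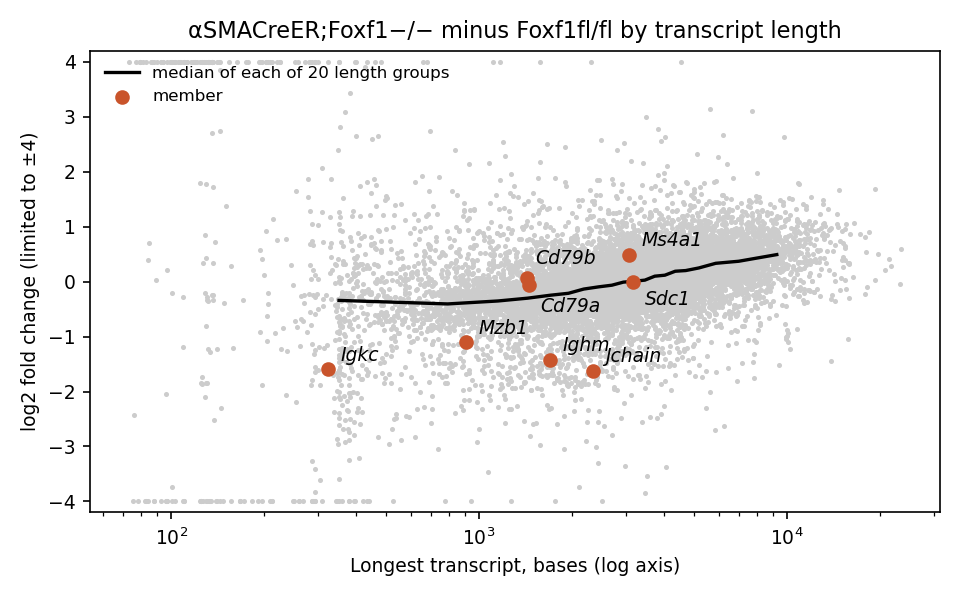
Median log2 fold change of each of 20 transcript length groups against transcript length (bases, log axis) as a line, with single genes in grey (limited to ±4) and the members as labelled points. Medians are lower for short transcripts, and Igkc, Mzb1, Ighm and Jchain lie below the median of their own group.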

How the data were processed

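Per the labels and the study's methods, the authors made TruSeq libraries from pooled adherent liver cells, sequenced 75-base single-end reads and aligned them with TopHat to mm10. They deposited 1 Cufflinks table of FPKM per library, and the version of each tool is not given in the sources used here. The kit's strand setting is not stated. From the steps between low FPKM values, depth was put at about 9700000 and 11140000 reads, a rough figure, since 41.9% and 44.3% of low values came within 0.1 of a whole read, against 20.0% without spacing. Of 38320 entries 36490 matched a GENCODE M21 symbol, and the entry with the highest mean was kept per symbol, leaving 38288 genes. The αSMACreER;Foxf1-/- values were divided by 1.018 (the median ratio over 12011 genes), and log2(FPKM + 0.1) was compared for 12861 genes with a mean of at least 1 FPKM, a scale that understates changes of low genes. Counting intervals used reads estimated from FPKM and transcript length. Alternatives were other scalings, pseudocounts of 1 and 0.01, no filter or a mean of 5 FPKM, a 2-fold threshold, summed entries and removal of the median of 20 length groups. Python 3.11.15, numpy 2.4.6, pandas 2.3.3 and matplotlib 3.10.9 were used, and the steps were tested on simulated data. All members were named, and from the other B cell and plasma cell lists the genes past 1.5-fold (at most 4 each way) and the 3 most abundant. The same rule was set for the marker lists of other cell types, which are given here by counts, sums and medians instead. Prdm1, Irf4, Tnfrsf17, Des, Acta2, Ighg2b, Ighg2c, Ighg3, Ighe, Iglc2 and Ly6g were named outside that rule after their values were seen. Members and lists were chosen with earlier results of these data known.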

Additional observations from a re-analysis of the deposited data

How the results depend on the processing

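Ighm, Igkc, Jchain and Mzb1 were lower and past 1.5-fold under all 10 alternatives, with log2 fold changes of -1.42 to -1.17, -1.60 to -1.25, -1.62 to -1.42 and -1.12 to -0.70. No filter, a mean of 5 FPKM, the 2-fold threshold and summed entries did not alter any member's log2 fold change. Only the scalings, pseudocounts and removal of the length trend moved these values. Cd79a changed sign under 2 alternatives (0.14 with equal FPKM sums and 0.24 with the length trend removed) and Sdc1 under 3, with a highest value of 0.20, both staying under 1.5-fold. Equal FPKM sums moved the median of all genes to 0.21, and 1 member, Ms4a1 at 0.69, then passed 1.5-fold upwards. This scaling adds nearly the same amount to every member's log2 fold change, so it cannot alter the split of members relative to that shift. Without Ms4a1, which a mean of 5 FPKM excludes, the members' median was -1.10. Among all genes 1697 were lower and 1662 higher as reported, beside 1125 and 2815 with equal sums, 3304 and 3978 with no filter, 953 and 692 with a mean of 5 FPKM and 800 and 581 at 2-fold. Removal of the length trend left 5 of 8 constant regions, 9 of 10 hepatocyte and 8 of 9 neutrophil markers lower, and brought Igha, Ssr4, Il6, Slamf7, Cd93, Ms4a4b and Ms4a6b under 1.5-fold. Equal sums left 9 of 10 hepatocyte markers lower, brought Sec11c, Ssr4 and Il6 under 1.5-fold and raised the counts past 1.5-fold upwards from 0 to 1 for co-receptors, 0 to 3 for signalling, 3 to 4 for mature B cell identity, 1 to 3 for precursors, 1 to 3 for plasma cell regulators, 1 to 2 for survival and homing factors, 2 to 3 for the MS4A family and 1 to 5 for stellate cell markers. No paired analysis was possible because only 1 library stands for each genotype. Depth was estimated and replicates were not sampled, so the intervals understate the error.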
